A study of Saccharomyces cerevisiae with 4 samples.

Results

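Low-histone cells were the single yeast cells at the lower end of the histone content of each strain, chosen by the sum of the H2B and H2Bub molecules counted for their barcode. A wild-type barcode was a member when this total lay under 3900 unique molecular identifiers (UMIs), and a double-knockout barcode when it lay from 1500 to under 6000 UMIs. This gave 426 of 850 wild-type barcodes and 385 of 848 double-knockout barcodes, 811 of 1698 in all (47.8%). The range is one of histone content. H2B and H2Bub were the only features counted, so that a cell cycle stage could not be checked against a marker of its own.

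Both strains were Saccharomyces cerevisiae with the BY4741 background (MATa, his3 leu2 met15 ura3), with a spytag and a 3xFLAG tag at the C terminus of H2B, grown in YPD to an OD600 of about 0.5 and fixed. One strain was otherwise wild type (WT), and the other (DKO, the double knockout), with the genotype labelled dub8/dub10, lacked the deubiquitinases Ubp8 and Ubp10. There was 1 culture per strain, and 1 library was made from each of the 2 gel bands. Since the cells of a strain come from a single culture, no test was run, and the intervals printed here hold counting error alone. Strain, culture and library cannot be told apart.

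H2B is one of the core histones around which DNA is wrapped in the nucleosome, and in yeast it is encoded by HTB1 (YDR224C) and HTB2 (YBL002W). The E2 enzyme Rad6 (YGL058W) and the E3 ligase Bre1 (YDL074C) attach a single ubiquitin to a lysine near its C terminus during transcription, which gives H2Bub. Ubp8 (YMR223W), a subunit of the SAGA coactivator complex, and Ubp10 (YNL186W) take the ubiquitin off again. Histone genes are transcribed mainly in S phase, when DNA is copied, so that cells before replication hold less histone than cells after it.

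The identity of a cell lay in a barcode made of an 8 nt part from each of 2 rounds of ligation in 96-well plates, 9216 combinations in all. The oligo of the first round also carried the UMI of 12 nt by which molecules were counted. The 96 well barcodes were the same set in both rounds, each with 4 G or C bases, and any pair of them differed at 3 positions or more. The first 8 bases of a cell barcode were read as the first round, in the order in which the methods join them. The oligos of the 2 first-round wells with the lowest and the 2 with the highest ubiquitinated fraction over both strains are shown. The reason is that the mean fractions of first-round wells, described further on, tended to rise together in both strains. The last line is the second-round oligo that most DKO barcodes under the lower limit carried. Capitals mark the well barcode and n the UMI.

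First-round well F11: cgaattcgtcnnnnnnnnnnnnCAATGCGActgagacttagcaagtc
First-round well H8: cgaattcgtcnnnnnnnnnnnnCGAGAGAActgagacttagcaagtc
First-round well E6: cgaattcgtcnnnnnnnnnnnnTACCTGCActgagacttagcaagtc
First-round well D7: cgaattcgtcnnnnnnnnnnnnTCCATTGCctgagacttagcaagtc
Second-round well F11: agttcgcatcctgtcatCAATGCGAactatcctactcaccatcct

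The 4 libraries held 427779 to 3803975 UMIs. Members held 32.6% of the WT UMIs and 28.8% of the DKO UMIs. Within a strain, the libraries of both bands shared nearly all barcodes, with H2Bub UMIs in 849 of the 850 WT barcodes and in all 848 of DKO. The tables of the strains had 72 barcodes in common, and 16 barcodes were members in both. Both strains drew on the same set of well barcodes. Among WT members the ubiquitinated fraction was 11.5% both in the 30 with a shared barcode and in the other 396. Among DKO members it was 44.2% in the 39 with a shared barcode and 42.8% in the other 346.

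WT members had 2972 ± 589 (SD, n = 426 cells) UMIs of H2B and H2Bub together, a coefficient of variation (CV) of 19.8%. The lowest cell had 1250 UMIs, the median was 3044 and the highest had 3898. Members were most frequent from 3000 to 3500 UMIs, with 144 cells, and only 9 had fewer than 1500. Counting error gives a CV of 1.87% on average at these totals, far below the spread observed. The rule cut the distribution at its upper end, so that these values describe the range and are not a finding about it.

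DKO members had 4681 ± 924 UMIs (SD, n = 385 cells) and a CV of 19.7%. Their lowest total was 2120 UMIs, the median 4877 and the highest 5999. The most frequent totals were 5000 to 5500 UMIs, with 96 cells, and 25 members had fewer than 3000. In both strains the totals of the members trailed towards low values, with a skewness of -0.68 in WT and -0.73 in DKO. The upper limits cut off the high side in both strains, so that this shape is not a finding about the cells.

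**Figure D1:**
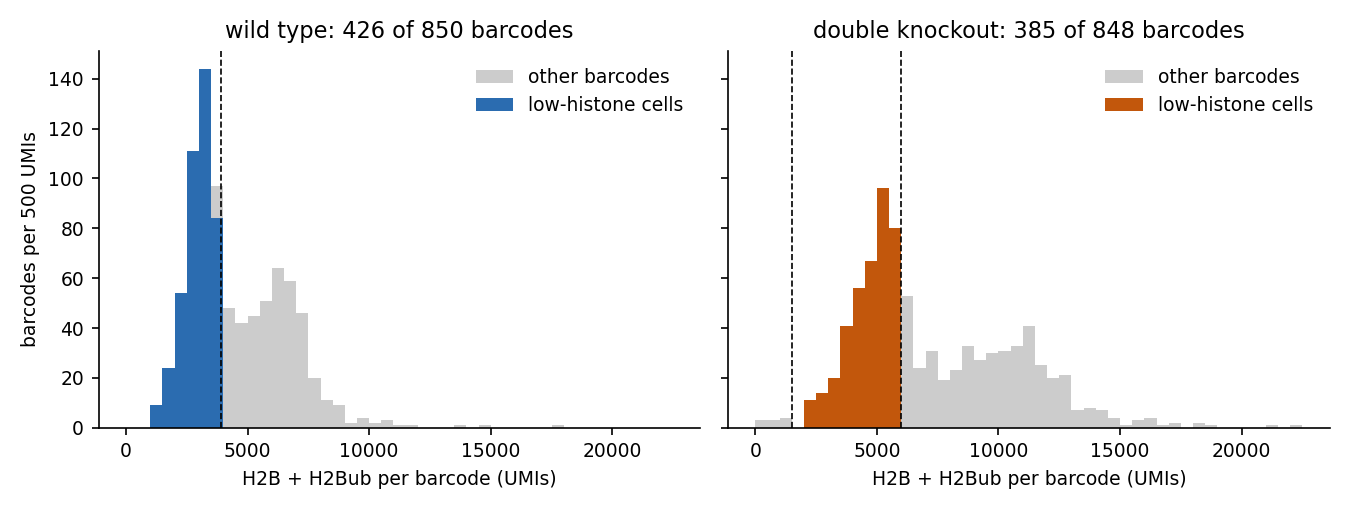
Histogram of H2B plus H2Bub per barcode (x axis, UMIs) against the number of barcodes per 500 UMIs (y axis) in WT and DKO. Coloured bars are the low-histone cells (426 and 385), gray bars the other barcodes, and dashed lines the limits of the rule. The upper limits lie on the falling side of the lower peak, and the lower limit of DKO in the gap below that peak.

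The upper limits fell where cells were still frequent. In WT, 82 members (19.2%) lay within 10% of the limit, and in DKO 86 members (22.3%). The barcodes nearest to the limits are given because they show what the rule parts, with the first-round part in capitals.

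WT, inside: CCAGTATCttgcgaga
WT, outside: TCATCTCCctcagaag
DKO, inside: GATCTTGCcacagact
DKO, outside: AGACGCTAcgagagaa

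In WT the cell just inside had 3428 UMIs of H2B and 470 of H2Bub, and the cell just outside 3515 and 385. In DKO cells the cell just inside had 3187 UMIs of H2B and 2812 of H2Bub, and the cell just outside 3922 and 2085. These 2 pairs had nearly equal totals and differed in how the total was divided between the bands. They do not stand for the cells around them, since the DKO fraction was 42.4 ± 3.86% (SD over 80 cells) from 5500 to 6000 UMIs and 40.4 ± 3.18% (53 cells) from 6000 to 6500 UMIs.

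The lower limit of DKO lay in a gap, with no barcode between 1467 and 2120 UMIs. Under it were 10 barcodes with 376 to 1467 UMIs. Of these, 6 carried the second-round barcode of well F11, and no other barcode of DKO carried it. Their totals ran from 495 to 1370 UMIs, with a median of 666, against a median of 6218 over the other 842 barcodes of the strain. The first-round well F11, which has the same 8 bases, held 8 DKO barcodes with 3332 to 10943 UMIs (median 4478, against 6198.5 in the whole strain), none of them under the lower limit, and 6 of them were members. In WT no barcode carried F11 in the second round, and the 5 with F11 in the first had 2631 to 7063 UMIs (median 3653, against 3897). The fraction of the 10 barcodes was 40.0% (39.0 to 41.1%), and they were not counted as members.

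H2B itself, the lower gel band, was present at almost the same level in members of both strains. WT members had 2629 ± 525 (SD, n = 426) UMIs of H2B, with a lowest value of 1087, a median of 2699 and a highest of 3529. DKO members had 2673 ± 551 (SD, n = 385) UMIs, with a lowest value of 1316, a median of 2735 and a highest of 3924. The medians differed 1.01-fold, and the ranges overlapped over nearly their whole length. The limits of the rule differ between the strains and act on the total that holds H2B, so that they fix these levels in part. The likeness of the levels is therefore not a finding. Without limits, the H2B libraries held 3455421 UMIs over 850 WT barcodes and 3803975 over 848 DKO barcodes.

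H2Bub, the upper band, differed more between the strains. WT members had 343 ± 76.9 UMIs of H2Bub, with a median of 354.5 and a highest value of 565. DKO members had 2009 ± 439 UMIs, with a lowest value of 776 and a median of 2076. The median was 5.86-fold higher in DKO, and no DKO member came down to the highest WT member. The limits fix these levels in part too, since the 10 DKO barcodes under the lower limit had 153 to 642 UMIs of H2Bub. The median of the total was 1.60-fold higher in DKO. The limits, which differ between the strains, fix this in part. Over all barcodes, without limits, the median total was 3897 UMIs in WT and 6198.5 in DKO.

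The same difference was seen in cells with equal H2B. From 2500 to under 3000 UMIs of H2B there were 166 WT members with 364 ± 44.4 (SD) UMIs of H2Bub and 139 DKO members with 2166 ± 303 UMIs, a fold of 5.96. From 2000 to under 2500 UMIs of H2B the fold was 5.83, over 78 and 84 members. The relative spread of H2Bub in the first of these windows was close, with a CV of 12.2% in WT and 14.0% in DKO.

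The ubiquitinated fraction, H2Bub over H2B and H2Bub together, was 11.5% (11.5 to 11.6%) in the summed counts of the WT members. In the DKO members it was 42.9% (42.8 to 43.0%), 3.72-fold higher (3.70 to 3.74 from counting error). The median WT member had 11.5%, with 5th and 95th percentiles of 9.50% and 13.7%. The median DKO member had 42.95%, with 5th and 95th percentiles of 37.1% and 49.1%. The strains did not overlap, since the highest WT fraction was 15.1% and the lowest of DKO 32.9%. Where the totals were alike, from 2000 to under 3900 UMIs, the fold was 3.62, over 393 WT and 81 DKO members.

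The cells at the ends of the distribution show how far single members went. The barcodes of the lowest, the median and the highest fraction are given with the first-round part in capitals.

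WT, lowest: GGCAAGTTagaccttg
WT, second lowest: CGAATACGgtccttga
WT, median: AGGAACACaagaccgt
WT, highest: TCGGATTCtcatctcc
DKO, lowest: AGACGCTAggaagaga
DKO, median: CACAGACTgaacggtt
DKO, highest: TCCTCATGccttccat

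The lowest WT member had 2188 UMIs of H2B and no UMI of H2Bub. Counting error alone would allow a fraction of up to 0.137% (3 counts of 2188). This member stood alone, since the next had 249 H2Bub UMIs beside 3085 of H2B, a fraction of 7.47%. All other WT members had at least 117 UMIs of H2Bub. Whether its barcode was missed in the H2Bub library was not tested for the lowest member. The WT member nearest to the median had 427 beside 3281 UMIs, and the highest had 343 beside 1931. In DKO cells the lowest member had 1921 UMIs of H2Bub beside 3924 of H2B, the member nearest to the median 1983 beside 2634, and the highest 2611 beside 1967. In 10 DKO members H2Bub exceeded H2B, which no barcode above the range did.

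H2Bub rose with H2B among the members of both strains. In WT Pearson's r of the log2 counts was 0.85 (Spearman's rho = 0.77, n = 425 cells with both isoforms). In DKO cells it was 0.80 (rho = 0.69, n = 385 cells). These are descriptions across cells of 1 culture, which share library, plates and recovery, and the rule on the total cuts off cells that are high in both isoforms.

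On the log-log scale, where a slope of 1 means that H2Bub is proportional to H2B, least squares of H2Bub on H2B gave 0.92 in WT and 0.87 in DKO. The slope depended on which count was taken as free of error. The inverse of the slope of H2B on H2Bub was 1.26 in WT and 1.36 in DKO, so that both fits of a strain enclose 1. The reduced major axis, which treats both counts alike, gave 1.08 in both strains. Taken against the total, by which the cells were chosen, H2Bub had a slope of 0.96 in WT and 1.03 in DKO. A departure from proportionality within the range was therefore not resolved by these counts.

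**Figure D2:**
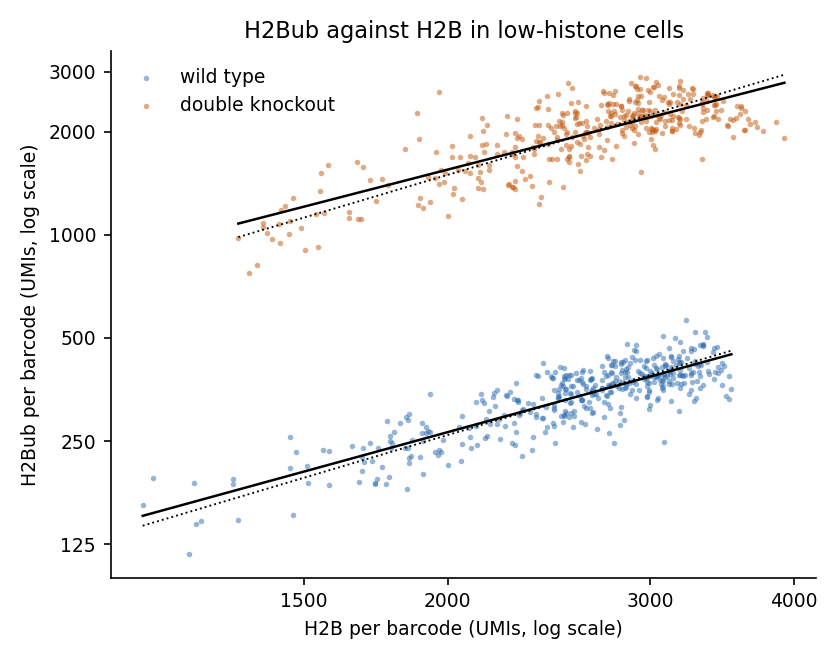
H2Bub (y axis, UMIs per barcode, log scale) against H2B (x axis, UMIs per barcode, log scale) in the low-histone cells of both strains, 1 point per cell. Solid lines are the least squares fits (slopes 0.92 and 0.87) and dotted lines have a slope of 1 through the same mean; the clouds of the strains do not meet.

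Within the range the fraction changed with the total by more than counting error, but not steadily. With the members ranked by total and divided into 4 groups of like size, it was 11.6% (11.4 to 11.7%) in the lowest WT group, 11.7% in each of the next and 11.3% (11.2 to 11.4%) in the highest. In the same order the DKO groups had 42.0% (41.9 to 42.2%), 43.8% (43.6 to 43.9%), 43.1% (42.9 to 43.2%) and 42.6% (42.5 to 42.7%). The correlation of the fraction with the log2 total was weak, with r = -0.08 in WT and r = 0.09 in DKO across cells. Neither strain had a steady rise or fall of the fraction over its low-histone cells.

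The fraction stood lower in the barcodes above the range. In WT it was 10.8% (10.7 to 10.8%) in the 424 barcodes above 3900 UMIs, so that the low-histone cells were 1.07-fold higher (1.06 to 1.08). In DKO cells it was 37.8% (37.8 to 37.9%) in the 453 barcodes above 6000 UMIs, and the low-histone cells were 1.13-fold higher (1.13 to 1.14). The difference was 0.77 percentage points in WT and 5.07 in DKO. Single cells overlapped widely, since 121 of the WT members (28.4%) and 32 of the DKO members (8.31%) lay under the median of the barcodes above. The total sets the classes and is also the denominator of the fraction. With 25 UMIs per barcode taken off H2Bub as background, the fold was 1.04 in WT and 1.13 in DKO.

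The change of the fraction with the total was followed in bins of 500 UMIs that held at least 10 barcodes. In WT the 5 bins from 1500 to 4000 UMIs had fractions of 11.3 to 11.7%, and the 9 bins from 4000 to 8500 UMIs 10.5 to 11.0%. None of these 9 bins came up to the lowest of the 5. In DKO cells the 8 bins from 2000 to 6000 UMIs had 40.3 to 43.9%, with the lowest value in the bin of only 11 cells at 2000 UMIs. The next bins went down to 40.4% at 6000 to 6500 UMIs and 39.1% at 6500 to 7000 UMIs, and the 12 bins from 7000 to 13000 UMIs stayed between 37.1 and 38.0%. In WT the bins up to 4000 UMIs were thus apart from those above. In DKO, by contrast, the lowest bin inside the range (40.3%) lay under the highest outside (40.4%). The DKO bin of 41 cells at 3500 to 4000 UMIs had 41.6%.

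**Figure D3:**
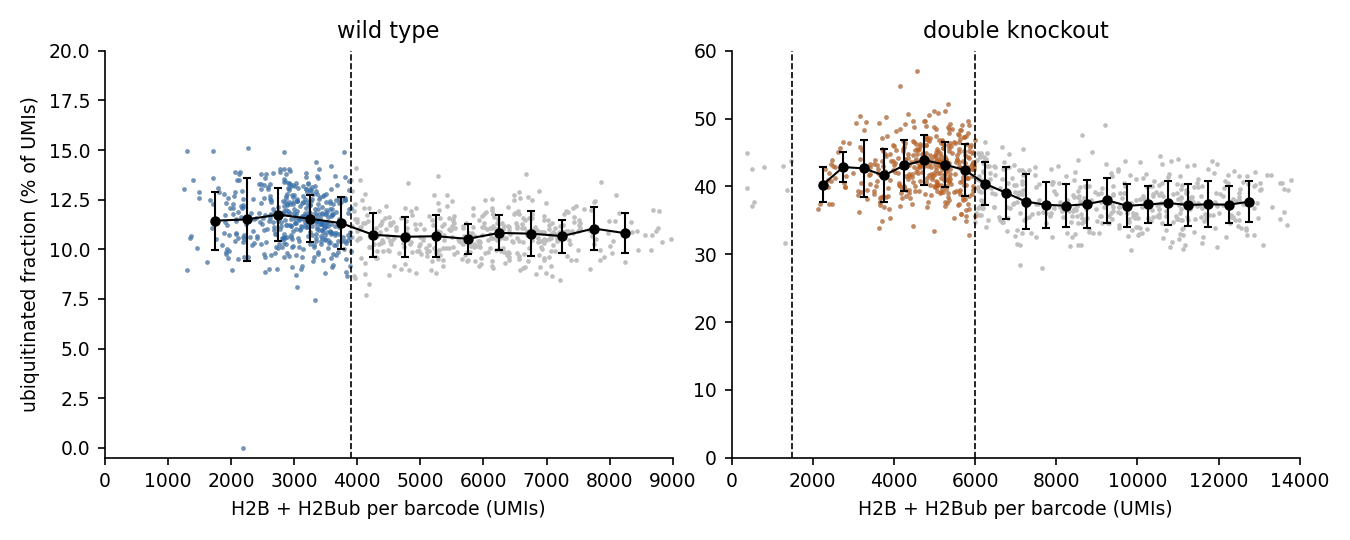
Ubiquitinated fraction (y axis, % of UMIs) against H2B plus H2Bub (x axis, UMIs per barcode) in WT and DKO, 1 point per barcode, with low-histone cells in colour. Black circles are summed fractions in bins of 500 UMIs, bars the SD over cells of the bin and dashed lines the limits; the axes end at 9000 and 14000 UMIs, and the y axes differ.

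The difference was also present inside the barcoding wells. Of the 62 first-round wells with at least 3 WT barcodes on each side of the limit, 56 had a higher mean fraction in the low-histone cells, with a mean difference of 0.90 ± 0.78 percentage points (SD over wells). In DKO cells 61 of 62 such wells had it, with a mean difference of 5.04 ± 1.96 points. By second-round wells it was 55 of 69 in WT and 63 of 65 in DKO. The wells divide 1 library and are not replicates of the culture.

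Single members varied in their fraction by more than counting error gives. In WT the SD over members was 1.41 percentage points, 2.35 times the SD of 0.60 points expected from counting at these totals. Without the WT cell that had no H2Bub UMI, the SD was 1.30 points, 2.15 times that from counting. In DKO cells the SD was 3.69 points, 4.97 times the 0.74 points from counting. A distance of at least 3 counting SDs from the summed fraction was found in 72 of 426 WT members (16.9%) and 212 of 385 DKO members (55.1%), against 0.272% and 0.270% from counting alone. These cells lay on both sides, 39 above and 33 under in WT, 101 above and 111 under in DKO.

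**Figure D4:**
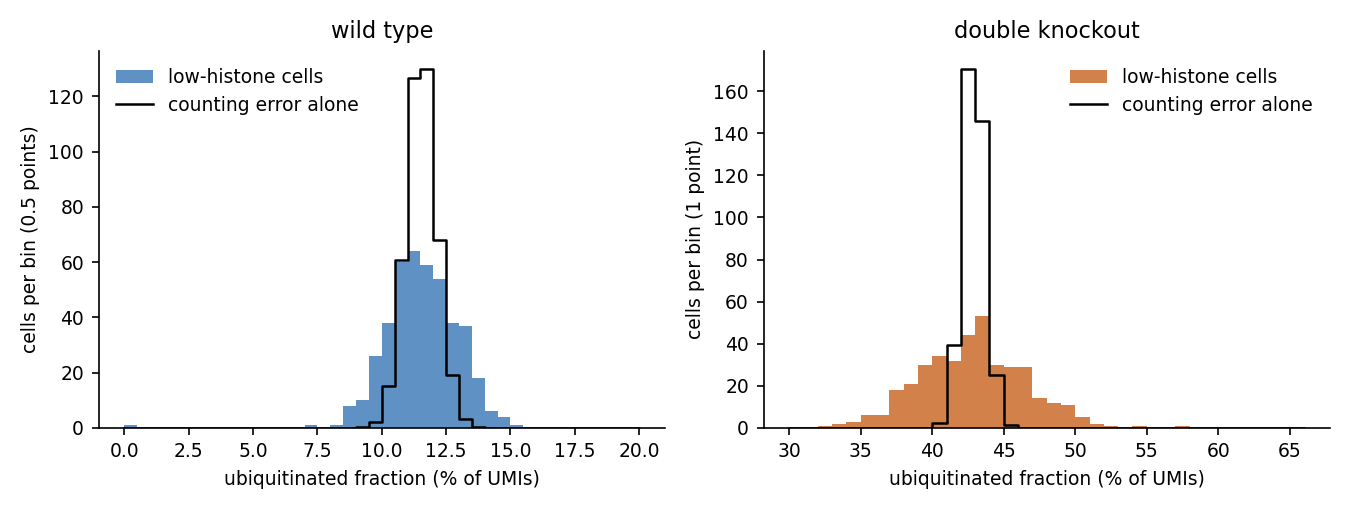
Distribution of the ubiquitinated fraction (x axis, % of UMIs) over the low-histone cells of WT (bins of 0.5 points) and of DKO (bins of 1 point), as numbers of cells (y axis). The black outline is the distribution that counting error alone gives at the totals of these cells. The observed SDs are 2.35 and 4.97 times as wide (2.15 in WT without the cell that had no H2Bub UMI).

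After counting error was taken off, an SD of 1.28 points remained in WT and 3.61 points in DKO. Set against the fraction itself, this was 11.1% of the WT value and 8.42% of the DKO value. On the log-odds scale, on which the 2 isoforms are treated alike, it was 0.13 and 0.15. The strain with the larger spread thus depended on the scale, WT relative to the fraction and DKO in points and in log-odds. Without the WT cell that had no H2Bub UMI, the WT values were 1.15 points, 9.93% and 0.11. In the barcodes above the range the SD beyond counting was 0.92 points in WT and 3.32 points in DKO, less than in the low-histone cells. Relative to the fraction it was 8.53% in WT, again less, but 8.79% in DKO, slightly more than in the low-histone cells.

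The SD beyond counting error was also taken in the same 4 groups by total. Among WT members it was 1.68 points in the lowest group and 1.19, 1.04 and 1.05 in the others. Without the cell that had no H2Bub UMI, the lowest group had 1.25 points. In DKO cells the SD was 3.50, 3.69, 3.26 and 3.82 points. The spread beyond counting was thus present at every level of total in the range.

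Part of the spread lay between the wells of both ligation rounds, with the larger share in the first round in WT and in the second round in DKO. By a random-effects estimate, 16.4% of the variance of the WT fraction lay between first-round wells and 10.2% between second-round wells, over 94 wells with members in each round. In DKO cells it was 5.86% over 92 first-round wells and 12.9% over 95 second-round wells. The first-round shares moved with the limit: with the upper limit 10% lower the WT share was 10.1%, and with it 10% higher the DKO share was 8.86%. Within first-round wells, the SD beyond counting error was 1.14 points in WT and 3.50 in DKO, so that most of the spread was found among cells of the same well.

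The strains had separate libraries, and the mean fractions of first-round wells were moderately correlated between them. Whether the cells of both strains were barcoded on the same plates or day is not stated. Over the 56 wells with at least 3 members in each strain, Pearson's r of the mean fractions was 0.52 (Spearman's rho = 0.46). It was 0.52 without the 2 wells farthest from the WT median. Of the 56 wells, 34 lay on the same side of the median in both strains. The same wells were compared with cells that the rule left out. Between members and barcodes above the range, r was 0.43 in WT and 0.40 in DKO, each over 62 wells. Between WT members and DKO barcodes above the range it was 0.24 over 64 wells, and between DKO members and WT barcodes above the range 0.50 over 56 wells. The points share the oligo of the well and, within a strain, the library. For second-round wells r between members of the strains was 0.19 over 61 wells. Between members and barcodes above the range it was -0.08 in WT over 69 wells and 0.20 in DKO over 65. Between WT members and DKO barcodes above the range it was 0.23 over 72 wells. For DKO members and WT barcodes above the range it was 0.30 over 57 wells.

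**Figure D5:**
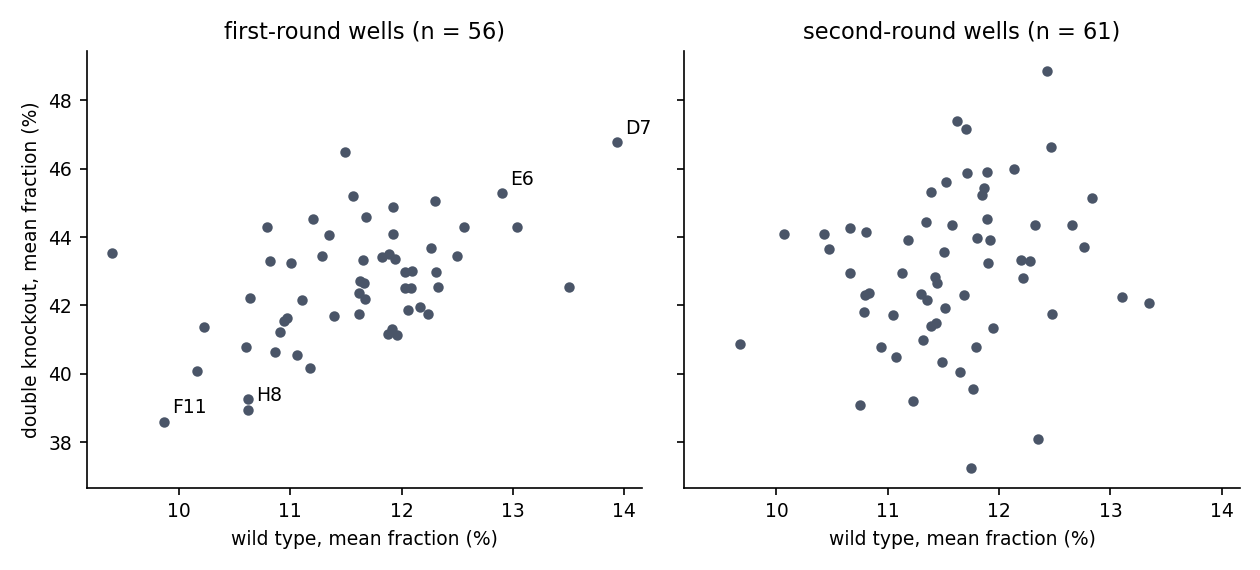
Mean ubiquitinated fraction of the low-histone cells of each well in WT (x axis, %) and in DKO (y axis, %), 1 point per well with at least 3 members in each strain. First-round wells (left, r = 0.52) rise together more than second-round wells (right, r = 0.19), with F11 and H8 at the low end and E6 and D7 at the high end.

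Of the 4 first-round wells whose oligos are shown above, F11 had 9.87 ± 0.91% (SD, 3 cells) in WT and 38.6 ± 2.36% (6 cells) in DKO. H8 had 10.6 ± 1.18% (13 cells) and 39.0 ± 1.97% (4 cells). E6 had 12.9 ± 0.61% (4 cells) and 45.3 ± 4.07% (4 cells), and D7 had 13.9 ± 0.95% (3 cells) and 46.8 ± 3.77% (3 cells). D7 ranked 56 of the 56 wells in both strains and F11 ranked 2 in WT and 1 in DKO, counted from the lowest. These wells were picked for their values, and their oligos differ only in the 8 bases in capitals. Whether the oligo, the plate position or the handling of the well goes with the fraction was not tested.

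The total differed between wells as well. Between first-round wells lay 3.69% of the variance of the log2 total in WT and 8.35% in DKO, and the r of the well means between the strains was 0.32 over the 56 wells. Between second-round wells lay 12.0% of this variance in WT, while the estimate for DKO was below 0.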

How the data were processed

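Histone H2B and its monoubiquitinated isoform H2Bub were measured in single yeast cells by barcoding the tagged protein, separating the isoforms on a gel and sequencing the oligos of each band. Of the material from each band, 10% was amplified. The authors dropped a read when its constant region had over 1 mismatch, or when its barcode was none of the possible ones, took barcodes with many reads as cells and counted their unique UMIs. These UMI counts, per barcode and band and not normalized, are what was deposited. For the counting tool and any correction of UMI errors, the sources used here say nothing, and spurious or merged UMIs could move the counts. The 4 count columns were all used.

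Members were taken by the limits on H2B plus H2Bub. The limits, the lists and the alternatives were chosen with earlier results of these data known. Summed fractions carry exact Clopper-Pearson intervals at 95%, folds the widest bounds that both intervals allow. The SD beyond counting error is the root of the observed variance minus the mean binomial variance. Slopes are least squares on log2 counts. Variance between wells is a moment estimate corrected for cells per well, and well means needed 3 members. Named cells were those at the lowest, median and highest fraction and those nearest to the limits, and named wells had the lowest and highest mean over both strains. Oligos come from the designed set of the study, and gene identifiers from the RefSeq R64 table, whose 6 named genes served as annotation only. The SD beyond counting error, the share of the variance beyond counting error between first-round wells and the slope of H2Bub on the total were simulated. These 3 were first tested on simulated cells of known values. The other estimates were not tested in this way, among them the printed well shares, which are of the whole variance with counting error. With 1 culture per strain, no replicate could be left out and no test was made. Alternatives changed the limits, the count that sets the range, the background, the barcodes used, the wells and the fit. Calculations ran in Python 3.11.15 with pandas 2.3.3, SciPy 1.17.1 and NumPy 2.4.6, and plots in Matplotlib 3.10.9.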

Additional observations from a re-analysis of the deposited data

How the results depend on the processing

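There is 1 culture per strain and no replicate to leave out. No paired analysis was possible because no result comes from a test. The excess of the low-histone cells over the barcodes above the range and that of DKO over WT kept their direction under all alternatives run. The SD beyond counting error stayed above 0. The WT excess over the barcodes above was small, a fold of 1.07, and 25 UMIs taken off H2Bub lowered it to 1.04. No other background value was tried, so whether the WT excess holds with a larger one was not tested. Of 177 values under alternatives, 131 stayed within the counting interval of the main value (for a member count within 1.5-fold, for slopes, CVs, SDs and variance shares within 10%), 44 did not and 2 changed direction. The cause of these changes was not tested. Some of the 131 could not move, since the alternative left the members of the strain unchanged. In WT this was no lower limit. In DKO it was a lower limit of 2000 UMIs and leaving out cells without an H2Bub UMI. The WT slope could not move either when only the cell without an H2Bub UMI was left out. The slope uses cells with both isoforms.

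The 2 changes of direction were in the lowest over the highest of 4 groups by total, a fold of 1.03 in WT and 0.99 in DKO. In WT it was 0.98 with 25 UMIs taken off H2Bub and 1.001 with the upper limit 10% lower. In DKO it was 1.02 with the limit 10% higher, 0.97 with it 10% lower and 0.95 with cells chosen by H2B under 3500 UMIs.

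With 25 UMIs taken off H2Bub, the fraction was 10.8% in WT and 42.6% in DKO, the fold of the strains 3.94, the fold over the barcodes above 1.04 and 1.13, the WT slope 1.02 and the variance share between first-round wells in DKO 7.33%. The upper limit 10% lower gave fractions of 11.6% and 43.1%, well shares of 10.1% and 5.20% (WT, then DKO) and a DKO fold over the barcodes above of 1.12. The limit 10% higher gave 11.5% and 42.5%, and in DKO a well share of 8.86% and a fold of 1.13. Cells chosen by H2B under 3500 UMIs gave, in DKO, a fraction of 43.3%, a CV of 24.2%, a slope of 1.02, a well share of 8.66% and a fold of 1.15. Without a lower limit, the DKO CV was 23.9%, the slope 0.98 and the well share 6.89%. Without barcodes found in both tables, DKO had 42.8%, a well share of 7.04% and a fold of 1.13, and means of barcode fractions gave a fold of 1.13. At totals from 2000 to under 3900 UMIs the fold of the strains was 3.62.

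Cells over 3 median absolute deviations from the median, or the cell without an H2Bub UMI (chosen after seeing the data), were left out. Either gave a WT SD beyond counting of 1.15 points and a well share of 20.6%. Within first-round wells this SD was 1.14 points. Second-round wells held 10.2% and 12.9% of the variance. The slopes were 1.26 and 1.36 by the inverse fit, 1.08 in both strains by the reduced major axis, and 1.03 in DKO on the total.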
